A study of Mus musculus with 51 samples.

Results

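The resistin family of the mouse has 4 genes, Retnla, Retnlb, Retnlg and Retn, and each was measured by 1 of the 22206 probe sets on these lung arrays, which name 19505 genes in all. The probe sets were found by gene symbol in the annotation of the array. The arrays hold lung RNA of male mice aged 6 to 8 weeks. All mice, controls included, had 1% methylene diphenyl diisocyanate (MDI) applied to the skin 2 times. MDI is a reactive building block of polyurethane and a known cause of occupational asthma. The airway exposures followed on days 15, 16, 19 and 20 and held either the reaction products of MDI with glutathione (called MDI below) or a control solution in which MDI and glutathione had been reacted apart from each other, both given intranasally. Lungs were perfused, lavaged and taken 48 h after the last exposure, so cells that the lavage removed from the airspaces are missing from the RNA.

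Of 51 arrays, 49 fell into 8 groups. BALB/c mice gave 3 control and 3 MDI arrays, and C57BL/6 mice gave 6 control and 13 MDI arrays. C57BL/6 mice that also received crofelemer, a plant-derived inhibitor of chloride channels (4 mg/kg, intranasal, 4 h ahead of every airway exposure), gave 5 control and 3 MDI arrays. Mice of the B-cell deficient strain B6.129S2-Ighmtm1Cgn/J, which carry a disrupted Ighm gene in all cells from birth, gave 9 control and 7 MDI arrays. For some crofelemer controls the exposure label names crofelemer alone, while the source label also names the control solution. The remaining 2 arrays carry labels that contradict each other on the treatment and entered no comparison. Nothing in the labels says that each array is a separate mouse, so the p-values measure the spread between arrays.

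Resistin and the resistin-like molecules are small secreted proteins with a conserved pattern of cysteines. Retnla (RELM-alpha, FIZZ1) is made by alternatively activated macrophages and by airway epithelium when interleukin 4 or interleukin 13 acts through the transcription factor STAT6, and it is a common mark of type 2 inflammation in the mouse lung. Retnlb (RELM-beta) is best known from goblet cells of the gut. Retnlg (RELM-gamma) is known from bone marrow, neutrophils and other myeloid cells, and Retn (resistin) is a product of mouse adipocytes.

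Retnlb, Retnla and Retnlg are neighbours. In the RefSeq annotation of the build GRCm38.p6, Retnlb lies at chr16:48816856-48818892, Retnla at chr16:48842609-48844461 and Retnlg at chr16:48872608-48874498, while Retn lies on another chromosome, at chr8:3655770-3659818. The 250 bases before the RefSeq start of Retnla and Retnlg are shown because the size of the gap that MDI opened between these neighbours differed among the sets (below). They are plus-strand RefSeq sequence of GRCm38.p6, at chr16:48842359-48842608 for Retnla and chr16:48872358-48872607 for Retnlg. Capitals mark matches to the STAT6 motif (TTC, then 4 bases of any kind, then GAA) and to the C/EBP motif TTGCNNAA, the motif of another factor family known to act at Retnla.
Retnla: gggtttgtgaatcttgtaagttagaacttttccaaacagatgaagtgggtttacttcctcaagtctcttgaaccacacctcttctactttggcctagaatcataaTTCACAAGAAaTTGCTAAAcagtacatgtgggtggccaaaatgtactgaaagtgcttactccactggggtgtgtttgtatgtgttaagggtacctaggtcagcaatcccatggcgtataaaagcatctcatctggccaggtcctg
Retnlg: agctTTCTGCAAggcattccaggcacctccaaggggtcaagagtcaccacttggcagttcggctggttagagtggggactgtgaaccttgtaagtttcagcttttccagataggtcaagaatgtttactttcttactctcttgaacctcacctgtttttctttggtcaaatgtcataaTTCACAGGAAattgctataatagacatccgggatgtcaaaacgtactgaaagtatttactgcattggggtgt

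The 2 windows aligned over 178 columns, of which 77.5% were identical and 3 held a gap. Each window held 1 match to the STAT6 motif, at bases 145 to 136 before the start in Retnla and 72 to 63 in Retnlg, and the alignment paired these matches with each other. They differed by 1 substitution, A7G, written as the base of Retnla, the position counted from 1 at the 5′ end of the motif, and the base of Retnlg. Retnla held a C/EBP match just behind the STAT6 match, at bases 134 to 127, whereas the only C/EBP match of Retnlg lay at bases 246 to 239 on the minus strand and overlapped no other match. Both strands were searched. Of the 250-base windows before all 32851 RefSeq starts, 5.85% held the STAT6 motif and 9.56% the C/EBP motif. Neither window held ACGTG, the core of the hypoxia response element, which 16.6% of the windows held, and the window before Retn held none of the 3 motifs. A match describes the letters of a window and says nothing of the binding of a factor in these lungs.

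Lung identity and B-cell labels were checked on marker genes. Sftpc and Scgb1a1, of alveolar type 2 and club cells, stood between 19.1 and 19.9 on all 49 arrays, on a scale whose highest deposited value was 20.91. Ms4a1, which codes for the B-cell antigen CD20, stood between 3.35 and 4.68 in B-cell deficient mice and between 6.04 and 7.83 in C57BL/6 mice. The crofelemer arrays stood apart here: with the strain labelled C57BL/6, Ms4a1 lay between 4.21 and 5.19 in them, and the B-cell antigen receptor gene Cd79a lay between 7.76 and 8.71, against 9.23 to 11.79 in C57BL/6 arrays without crofelemer and 4.50 to 5.84 in B-cell deficient mice. Every crofelemer array was below every C57BL/6 array without crofelemer for both genes. The medians of the arrays also differed by set: 6.71 to 6.75 in BALB/c, 6.86 to 7.01 in C57BL/6 without crofelemer, 6.79 to 6.83 with it, and 7.44 to 7.60 in B-cell deficient mice. Levels set across these sets therefore carry any difference in processing or in the source of the mice, and the crofelemer effects below carry it too. Comparisons of MDI with control within a set do not cross sets, but the runs of submission described below are not balanced within them.

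Retnla rose after MDI in each of the 3 sets without crofelemer, by nearly the same amount. Values are log2 signals, on which a difference of 1 is a 2-fold change. BALB/c control arrays read 12.58, 10.53 and 11.63, and BALB/c MDI arrays 17.58, 17.43 and 16.88. In C57BL/6 mice the 6 controls ran from 11.43 to 15.58 with a median of 12.40, and the 13 MDI arrays from 17.85 to 19.39 with a median of 18.54. In B-cell deficient mice the 9 controls ran from 11.41 to 14.16 (median 12.96) and the 7 MDI arrays from 18.09 to 18.99 (median 18.55). In all 3 sets every MDI array lay above every control array, and the controls were spread wider than the MDI arrays: the SD was 1.03, 1.51 and 0.91 in controls against 0.37, 0.43 and 0.30 after MDI. The MDI arrays, from 16.88 to 19.39, lay toward the top of a scale whose highest deposited value was 20.91. What this does to their spread and to the size of the rise was not tested.

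**Figure D1:**
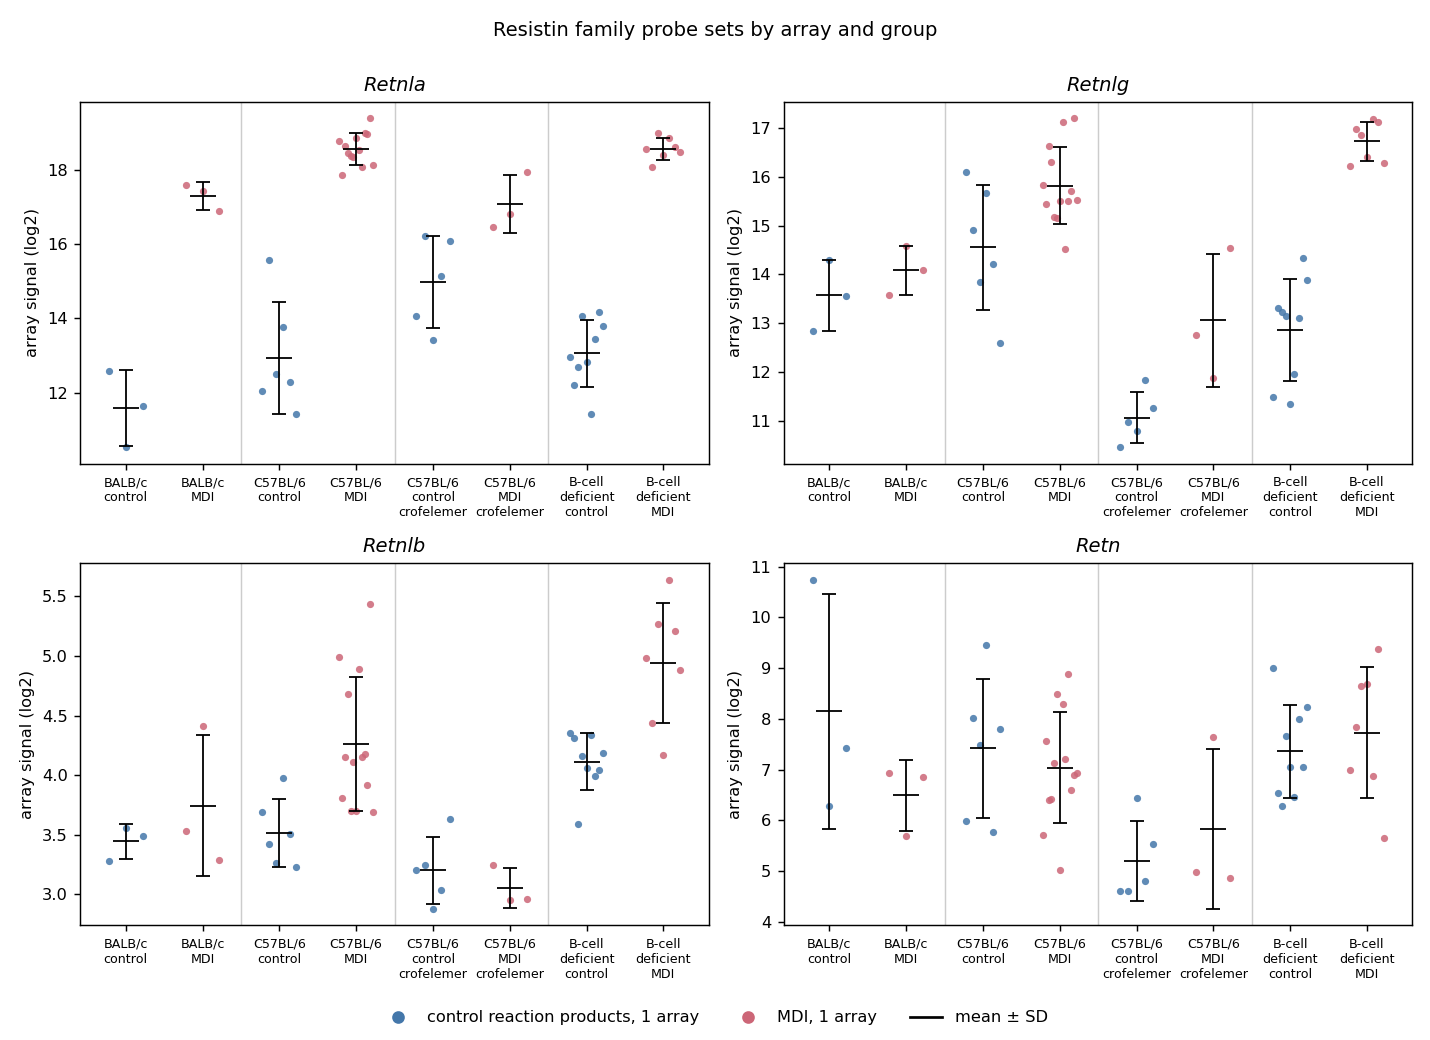
Log2 array signal of the 4 resistin family probe sets on the 49 grouped arrays, with 1 point per array, blue for controls and red for MDI, and black bars for the mean and SD of each group. Retnla separates MDI from control in every set, Retnlg does so in B-cell deficient and crofelemer-treated mice, Retnlb stays at the foot of the scale, and the Retn groups overlap in every set.

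The MDI effect on Retnla was 5.72 ± 0.64 (log2 difference, SE; limma adjusted p = 1.85e-08) in BALB/c, 5.63 ± 0.39 (adjusted p = 7.83e-16) in C57BL/6 and 5.51 ± 0.40 (adjusted p = 3.56e-15) in B-cell deficient mice. The adjusted p-values are over all 22206 probe sets, and a probe set with an adjusted p under 0.05 counts as changed. Of all probe sets, 0.302% were changed in BALB/c, 14.5% in C57BL/6 and 36.9% in B-cell deficient mice. All MDI arrays lay above all controls for 7.48%, 0.459% and 4.67% of them. The effect in BALB/c mice differed from that in C57BL/6 mice by 0.08 ± 0.75 (95% confidence interval -1.42 to 1.59; limma adjusted p = 0.994). B-cell deficient and C57BL/6 mice differed by -0.12 ± 0.55 (interval -1.24 to 0.99; adjusted p = 0.899), and the sign of this small difference turned under quantile normalization (0.52). Across the whole genome, 0.027% and 20.3% of the probe sets passed these tests of a difference between effects. In bulk lung RNA, more cells that make Retnla and more Retnla RNA per cell cannot be told apart, which holds for every gene below.

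Under crofelemer the MDI effect on Retnla was smaller. The control arrays read 14.07, 16.23, 13.41, 15.13 and 16.08 and the MDI arrays 16.46, 16.82 and 17.95. The groups did not overlap, but the lowest MDI array stood only just above the highest control. The difference was 2.09 ± 0.57 and did not pass (limma adjusted p = 0.186), in a comparison in which 0.054% of all probe sets passed and 1.80% had all MDI arrays above all controls. The MDI effect with crofelemer minus that without it was -3.54 ± 0.69 (interval -4.93 to -2.15; adjusted p = 0.00922), a test that 0.423% of all probe sets passed, 0.243% in this direction. Both ends moved: crofelemer controls were 2.05 ± 0.48 higher than C57BL/6 controls (adjusted p = 0.000452), and crofelemer MDI arrays were 1.49 lower (difference -1.49 ± 0.50; adjusted p = 0.0180) than C57BL/6 MDI arrays. The groups overlapped in both of these comparisons across sets, which called 39.0% and 32.6% of all probe sets.

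Single arrays and blocks of arrays decide part of the crofelemer result. The records fall into 3 runs of consecutive submissions, which the labels do not name as batches. Within the first run alone, where 4 arrays of each control group lie, the rise in controls was 1.24 (limma adjusted p = 0.0753) and the difference of MDI effects -2.76 (adjusted p = 0.0925). Without crofelemer MDI array 1 the difference of MDI effects was -3.23 (adjusted p = 0.0548), and without array 2 it was -3.41 (adjusted p = 0.0541). The lower level with MDI was -1.18 (adjusted p = 0.158) and -1.36 (adjusted p = 0.0826) without these arrays.

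By mean level, the groups ran from B-cell deficient MDI (18.57) and C57BL/6 MDI (18.57), which overlapped, through BALB/c MDI (17.30) and crofelemer MDI (17.08), which also overlapped, to crofelemer controls (14.98). The B-cell deficient, C57BL/6 and BALB/c controls (13.06, 12.93 and 11.58) followed and overlapped each other in turn. All 26 MDI arrays of the 8 groups lay above all 23 controls. The margin was small: the lowest MDI array read 16.46 and the highest control 16.23, both with crofelemer. The share of all probe sets that separate in this way was not counted. Levels across sets also carry any difference in processing.

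Genes that mark the alternatively activated macrophage rose beside Retnla. Of 19 measured genes of that list, which does not hold Retnla, 7 rose in BALB/c, 17 in C57BL/6 and 18 in B-cell deficient mice, with a median difference of 1.20, 1.36 and 1.53 against -0.01, 0.01 and -0.06 over all probe sets. In the same comparisons 0.261%, 5.30% and 16.2% of all probe sets rose. Tgm2, a transglutaminase, was the 1 member that fell in C57BL/6 mice (it fell by 0.73). Chil3 and Chil4, chitinase-like proteins, rose by 2.37 ± 0.22 and 3.95 ± 0.32 in C57BL/6 mice, and Ccl8, a chemokine, rose by 5.09 ± 0.38 (limma adjusted p = 3.04e-11, 1.21e-13 and 7.68e-15). Arg1, an arginase that competes for the substrate of nitric oxide synthesis, rose by 2.78 ± 0.45 in C57BL/6 (adjusted p = 1.73e-05) and 3.44 ± 0.46 in B-cell deficient mice (adjusted p = 7.81e-08). The BALB/c value was 0.81 ± 0.74 (adjusted p = 0.999).

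Under crofelemer, where 0.054% of all probe sets were called, limma called 0 of these 19 macrophage genes after MDI, with a median of 0.38. At an unadjusted p under 0.05, 6 of the 19 passed, all higher, beside 1826 of all 22206 probe sets in either direction. Ccl8 had 1.92 ± 0.56 (adjusted p = 0.227), and its MDI effect differed by -3.16 ± 0.67 (adjusted p = 0.0183) from that without crofelemer. Chil4 had 1.73 ± 0.47 (adjusted p = 0.183; difference of effects -2.23 ± 0.57, adjusted p = 0.0576). With MDI, 13 of the 19 were lower with crofelemer than without it and 2 were higher, Fn1 and Gpnmb, where 17.5% and 15.0% of all probe sets were lower and higher.

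The cytokine axis known to induce Retnla was counted next. Of 17 measured genes of the interleukin 4 and 13 axis, limma called 0 in BALB/c mice (also 0 at an unadjusted p under 0.05), 4 higher and 1 lower in C57BL/6 mice, and 7 higher in B-cell deficient mice. Of all probe sets, 0.302% were called in BALB/c mice (1247 of 22206 at an unadjusted p under 0.05). In C57BL/6 mice 5.30% were higher and 9.23% lower, and in B-cell deficient mice 16.2% were higher. Il4 itself rose by 1.20 ± 0.22 in C57BL/6 (adjusted p = 0.000125) and by 2.67 ± 0.23 in B-cell deficient mice (adjusted p = 5.00e-13), a difference between effects of 1.46 ± 0.32 (adjusted p = 0.00141). Il4 had 0.12 ± 0.37 in BALB/c mice (adjusted p = 0.999). Il13 rose by 0.43 ± 0.14 in C57BL/6 (adjusted p = 0.0329) and had 0.19 ± 0.14 in B-cell deficient mice (adjusted p = 0.309). Il33, an epithelial alarmin, rose by 1.78 ± 0.25 in C57BL/6 and by 1.29 ± 0.26 in B-cell deficient mice (adjusted p = 1.48e-06 and 9.79e-05). Stat6, which carries the signal to the promoter of Retnla, fell by 0.63 in C57BL/6 mice (SE 0.11; adjusted p = 3.30e-05) and had 0.01 ± 0.11 in B-cell deficient mice (adjusted p = 0.930). Il4ra, the shared receptor chain, had 0.03 ± 0.15 and 0.31 ± 0.16 (adjusted p = 0.943 and 0.117). Where the Il4 effects were 2.67 (B-cell deficient) and 1.20 (C57BL/6), those on Retnla were 5.51 and 5.63. For Il4, no difference between the effects in BALB/c and C57BL/6 mice is given here. The Retnla values after MDI lay toward the top of the scale, which may limit the size of its rise. The part of Il4 in the rise of Retnla was not tested.

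Retnlg, the neighbour of Retnla, did not follow it in every set. BALB/c controls read 12.85, 14.30 and 13.56 and the MDI arrays 13.58, 14.59 and 14.09, and the groups overlapped. In C57BL/6 mice the controls ran from 12.60 to 16.10 (median 14.56) and the MDI arrays from 14.53 to 17.20 (median 15.52), again with overlap. In B-cell deficient mice the controls ran from 11.35 to 14.34 (median 13.14) and the MDI arrays from 16.23 to 17.18 (median 16.85). Here the lowest MDI array stood clear of the highest control.

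The MDI effect on Retnlg was 0.52 ± 0.66 in BALB/c (limma adjusted p = 0.999), 1.27 ± 0.40 in C57BL/6 (adjusted p = 0.0244) and 3.86 ± 0.40 in B-cell deficient mice (adjusted p = 2.39e-10). The effect in B-cell deficient mice exceeded that in C57BL/6 mice by 2.59 ± 0.57 (interval 1.46 to 3.73; adjusted p = 0.00150), a direction in which 9.27% of all probe sets passed. BALB/c and C57BL/6 differed by -0.75 ± 0.77 (interval -2.29 to 0.79; adjusted p = 0.885). The call in C57BL/6 mice was fragile. It ended with the submission run as a term (1.06; adjusted p = 0.0783), within the first run (0.72; adjusted p = 0.356), and without control 3 (1.12; adjusted p = 0.0726), control 5 (1.20; adjusted p = 0.0568) or control 6 (0.87; adjusted p = 0.140).

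Without the 4 B-cell deficient controls whose values had the narrowest spread, arrays 1, 2, 5 and 6, the MDI effect on Retnlg in that strain was 3.19 (limma adjusted p = 5.33e-07) and its difference from C57BL/6 mice 1.92 (adjusted p = 0.0451). All 9 controls of the strain lie in the second submission run and 4 of its 7 MDI arrays in the first. Within the second run, with the C57BL/6 arrays of the first, the difference kept its call (adjusted p = 0.00482), as it did with the run as a term (adjusted p = 0.00539).

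**Figure D2:**
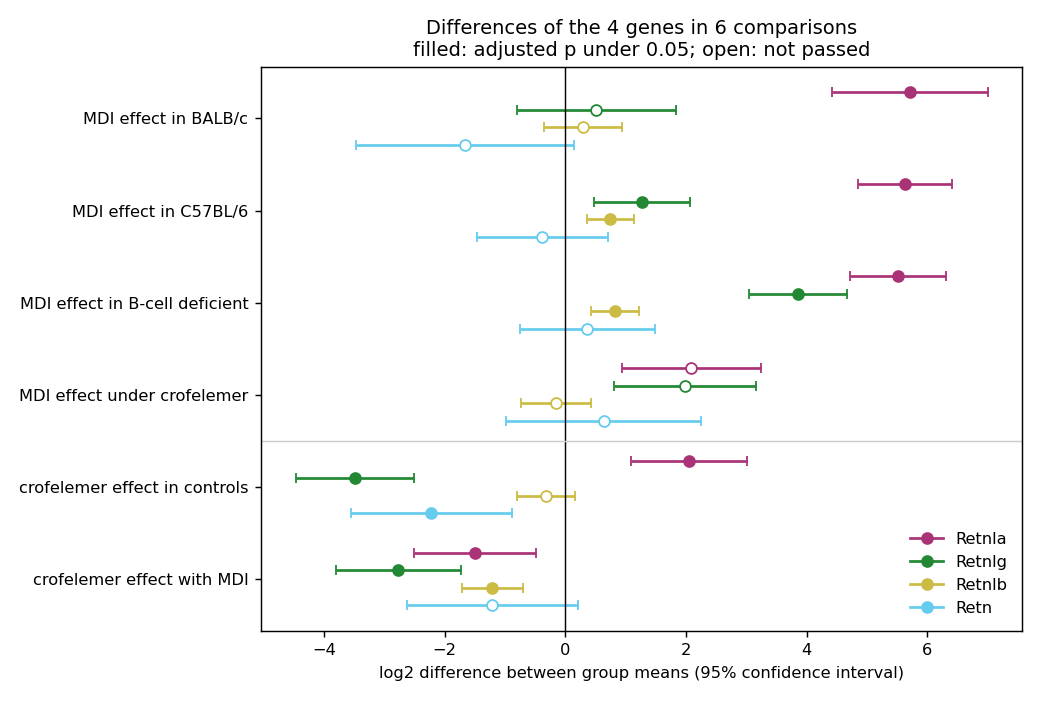
Log2 differences between group means with 95% confidence intervals for the 4 genes in 4 comparisons of MDI with control (upper rows) and 2 of crofelemer with none (lower rows). Filled points have an adjusted p under 0.05. Retnla lies near 5.6 in the 3 upper rows and at 2.09 under crofelemer, while Retnlg moves from 0.52 to 3.86 over the same 3 rows.

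Under crofelemer Retnlg read 10.46, 10.98, 10.79, 11.83 and 11.26 in controls and 12.76, 11.87 and 14.54 after MDI. The groups did not overlap, although the margin between MDI array 2 and control 4 was small. The difference was 1.99 ± 0.59 and did not pass (limma adjusted p = 0.240). Its difference from the effect without crofelemer was 0.73 ± 0.71 (interval -0.69 to 2.15; adjusted p = 0.728). With the 3 shared array numbers as a replicate block, Retnla had 2.51 and Retnlg 2.31 in crofelemer-treated mice, and both passed (adjusted p = 0.00141 for each). Arrays of these groups with the same number did not run together, however (r of their deviations -0.26 to 0.16). With only the 8 crofelemer arrays in the fit Retnlg passed too (adjusted p = 0.0372).

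The level of Retnlg itself was lower with crofelemer. All 5 crofelemer controls lay below all 6 C57BL/6 controls, as held for 12.7% of all probe sets, and the difference was -3.49 ± 0.49 (limma adjusted p = 6.06e-08). With MDI the difference was -2.76 ± 0.51 (adjusted p = 2.43e-05), and the groups overlapped in 1 array, crofelemer MDI array 3. In these comparisons 21.4% and 17.5% of all probe sets were lower. The B-cell genes were lower too: all 6 measured members fell in both comparisons, and their mean signal lay between 5.41 and 5.97 with crofelemer against 6.86 to 8.26 without. The part of this shift, and of any other difference between the sets, in the Retnlg result was not tested.

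By mean level, Retnlg was highest in B-cell deficient MDI (16.72) and C57BL/6 MDI arrays (15.82), and lowest in crofelemer controls (11.06), with each group overlapping the next in order. The B-cell deficient controls (12.87) stood seventh of the 8, so the larger MDI effect in that strain started from a lower deposited level than in C57BL/6 mice (14.56), within the limit on levels across sets.

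Retnla and Retnlg were set against each other within each array, as the log2 signal of Retnla minus that of Retnlg. The zero of this scale depends on the 2 probe sets, so only its changes are read. Each change is given with an SE from the 2 groups compared alone, not from the limma fit. In BALB/c mice it went from a mean of -1.99 (lowest -3.77, highest -0.27) to 3.21 (2.79 to 4.00), a change of 5.20 ± 1.09. In C57BL/6 mice it went from -1.62 (-4.06 to 0.67) to 2.75 (1.42 to 3.54), a change of 4.37 ± 0.65. In both strains all MDI arrays lay above all controls. In B-cell deficient mice it went from 0.19 (-1.13 to 1.48) to 1.85 (1.10 to 2.32), a change of 1.65 ± 0.35, and the groups overlapped. Under crofelemer it was 3.92 (2.62 to 5.25) in controls and 4.02 (3.41 to 4.95) after MDI, and the change was 0.10 ± 0.68. Crofelemer controls lay above all C57BL/6 controls, by 5.54 ± 0.79. Thus the same pair of genes moved apart by 4.4 to 5.2 in 2 strains, by 1.7 in B-cell deficient mice, and by 0.1 under crofelemer.

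**Figure D3:**
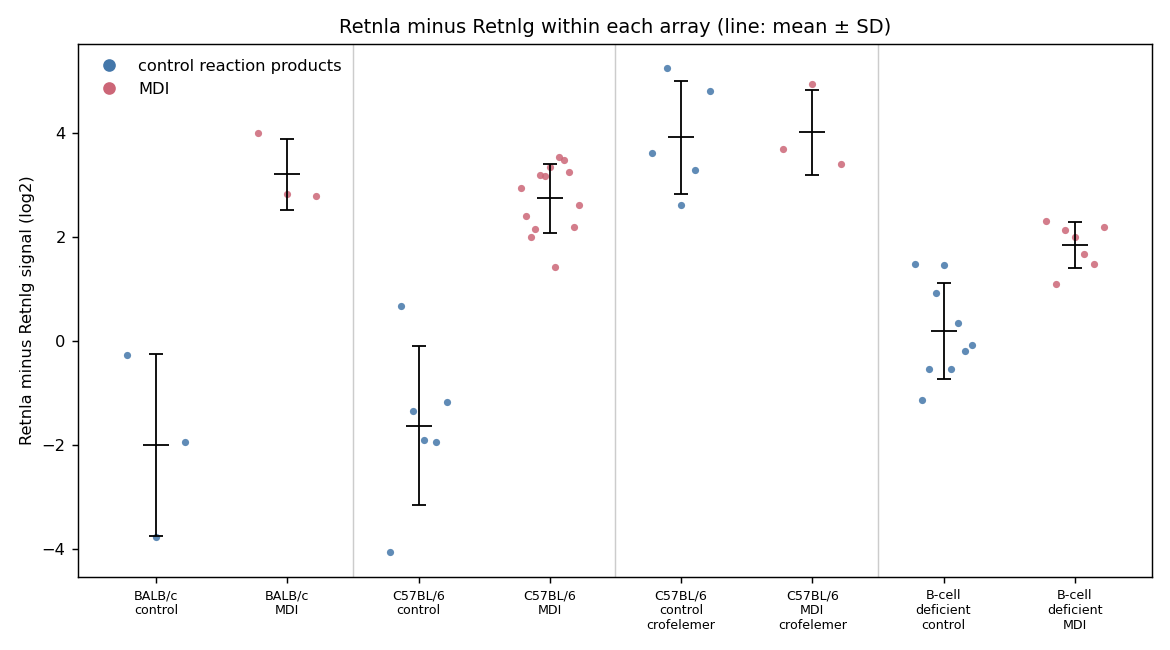
Log2 signal of Retnla minus that of Retnlg within each array, with 1 point per array, blue for controls and red for MDI, and black bars for the mean and SD. The control and MDI points are separate in BALB/c and C57BL/6 mice and overlap in B-cell deficient mice and under crofelemer, where controls already stand between 2.62 and 5.25.

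Over the 49 arrays, deviations of Retnla and Retnlg from the mean of their set correlated with r = 0.73 (Spearman rho 0.75), and deviations from the mean of their group, which leave out the MDI effect, with r = 0.38 (rho 0.38). Such correlations are descriptions over arrays that share sets, treatments and processing, and no p is given for them here or below.

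The genes whose pattern was most like that of Retnla and of Retnlg differed. For deviations from set means, Retnla was closest to Ccl8 (r = 0.95), Chil4 (0.94), the eosinophil ribonuclease Rnase2a (0.94), the epithelial immunoglobulin receptor Pigr (0.93) and the anion exchanger Slc26a4 (0.93). Without the MDI effect, over deviations from group means, the closest were Stil, Mastl, Hmmr, Knl1 and Ckap2 (r = 0.77, 0.73, 0.72, 0.71 and 0.71), genes of centriole duplication, mitotic entry, the spindle and the kinetochore. In C57BL/6 mice Stil rose by 0.93 ± 0.24 after MDI (limma adjusted p = 0.00613), and crofelemer controls were 2.18 ± 0.30 higher in Stil than C57BL/6 controls (adjusted p = 4.04e-08). Retnla was higher there too. With MDI the directions parted: Stil was 1.32 ± 0.32 higher with crofelemer than without (adjusted p = 0.000818), whereas Retnla was lower (-1.49).

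Retnlg was closest to Itgam, the CD11b integrin chain of myeloid cells, by both measures (r = 0.92 over set deviations and 0.85 over group deviations, 49 arrays). Pla2g7, Lilr4b, Arhgdib and Aqp9 followed over set deviations (r = 0.91, 0.91, 0.91 and 0.90). Apbb1ip, Lilr4b, Ikzf1 and Ccr1 followed over group deviations (r = 0.83, 0.81, 0.79 and 0.79). Like Retnlg, Itgam rose after MDI in B-cell deficient mice, by 2.41 ± 0.31 (limma adjusted p = 4.13e-08), more than in C57BL/6 mice (difference 1.92 ± 0.43; adjusted p = 0.00194), where it had 0.48 ± 0.30 (adjusted p = 0.320). Unlike Retnlg, it was level between crofelemer and C57BL/6 controls (0.01 ± 0.37; adjusted p = 0.985).

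Genes of eosinophils, monocytes and alveolar macrophages were counted beside Retnlg. Of 10 measured eosinophil genes, 1 rose in BALB/c mice, 8 in C57BL/6 and 10 in B-cell deficient mice, where 0.261%, 5.30% and 16.2% of all probe sets rose. Over group deviations all 10 had an r above 0 with Retnlg (median 0.45, against -0.01 over all other probe sets). This was not particular to Retnlg: 10 were above 0 with Retnlb (median 0.42) and 9 with Retnla (median 0.38). Ccr3, the eotaxin receptor, rose by 2.41 ± 0.35 in C57BL/6 and by 3.67 ± 0.36 in B-cell deficient mice (limma adjusted p = 2.91e-06 and 3.83e-11). The BALB/c value was 0.89 ± 0.58 (adjusted p = 0.999). Of 9 monocyte genes, which include Itgam, 6 rose and 1 fell in B-cell deficient mice, and the MDI effect on 4 of them was larger than in C57BL/6 mice and on 0 smaller (also 0 at an unadjusted p under 0.05). Of 9 alveolar macrophage genes 6 rose and 1 fell in B-cell deficient mice, and 3 had a larger and 0 a smaller effect (also 0 at an unadjusted p under 0.05). Of 10 eosinophil genes 2 had a larger effect. Over all probe sets 9.27% had a larger effect in B-cell deficient mice. The part of these cells in the Retnlg result was not tested.

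Few of the defining genes of neutrophils rose after MDI with Retnlg. Of 25 measured neutrophil genes, 1 rose and 7 fell in C57BL/6 mice, with a median of -0.71 (10 fell within the first submission run), where 5.30% of all probe sets rose and 9.23% fell. Csf3r, the receptor of granulocyte colony-stimulating factor, fell by 1.65 (SE 0.40; limma adjusted p = 0.00284), Mmp9, a granule protease, fell by 1.62 (SE 0.42; adjusted p = 0.00557) and Il1b fell by 1.46 (SE 0.36; adjusted p = 0.00402). In B-cell deficient mice, where 16.2% of all probe sets rose and 20.7% fell, 3 of them rose and 2 fell, with a median of 0.01: Mmp9, Padi4, which citrullinates histones, and Lcn2, a siderophore-binding protein, rose by 1.81, 1.20 and 1.18. Elane and Prtn3, granule proteases of immature cells, fell by 0.35 and fell by 0.47. The calprotectin chains S100a8 and S100a9 had 0.19 ± 0.60 and -0.12 ± 0.57 (adjusted p = 0.832 and 0.884), and Csf3r had 0.44 ± 0.41 (adjusted p = 0.408). In BALB/c mice and under crofelemer limma called 0 of the 25 (1 and 0 at an unadjusted p under 0.05). Of all probe sets, 0.302% and 0.054% were called in these comparisons.

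Between the strains, some neutrophil genes differed in the direction of Retnlg. The MDI effect in B-cell deficient mice exceeded that in C57BL/6 mice for 5 of the 25, Mmp9, Il1b, Padi4, Csf3r and Cxcr2 (by 3.42, 2.27, 1.22, 2.10 and 1.53; limma adjusted p from 0.000198 to 0.0318), and was smaller for 1, Prtn3 (-0.56). The median difference was 0.64, against -0.01 over all probe sets, of which 9.27% had a larger effect. Without the 4 B-cell deficient controls of narrowest spread, 2 of the 25 had a larger effect and 0 a smaller one, and with the submission run as a term 3 had a larger effect.

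Array by array, over deviations from group means, Retnlg still ran with neutrophil genes: r was 0.76 with Mmp9, 0.65 with S100a8, 0.65 with S100a9 and 0.54 with Csf3r. The median over the 25 genes was 0.46, and 17 of them were above 0, against a median of -0.01 over all other probe sets. For Retnla the median over the same 25 genes was 0.06. Retnlg also ran with other lists: its median r was 0.45 over eosinophil, 0.41 over monocyte and 0.35 over alternatively activated macrophage genes. Over deviations from set means, the median r of Retnlg with the 25 neutrophil genes was 0.12. Among controls, crofelemer was associated with lower Retnlg and lower Csf3r, Mmp9, S100a9, Il1b and Cxcr2 (differences -1.98, -2.46, -2.41, -2.25 and -2.12; limma adjusted p = 0.000948, 0.000114, 0.00378, 5.22e-05 and 0.000138). In all, 7 of the 25 neutrophil genes were lower and 3 higher there, with a median of -0.09, where 21.4% of all probe sets were lower and 17.6% higher. With MDI, where 15.0% of all probe sets were higher and 17.5% lower, 6 of the 25 were higher with crofelemer and 0 lower (also 0 lower at an unadjusted p under 0.05), among them Ltf, Hp and Lcn2 (2.23, 1.04 and 0.73; adjusted p = 0.00139, 5.19e-07 and 0.0329), beside a lower Retnlg. Quantile normalization called 1 of the 25 lower, and the replicate block called 2 lower and 3 higher.

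**Figure D4:**
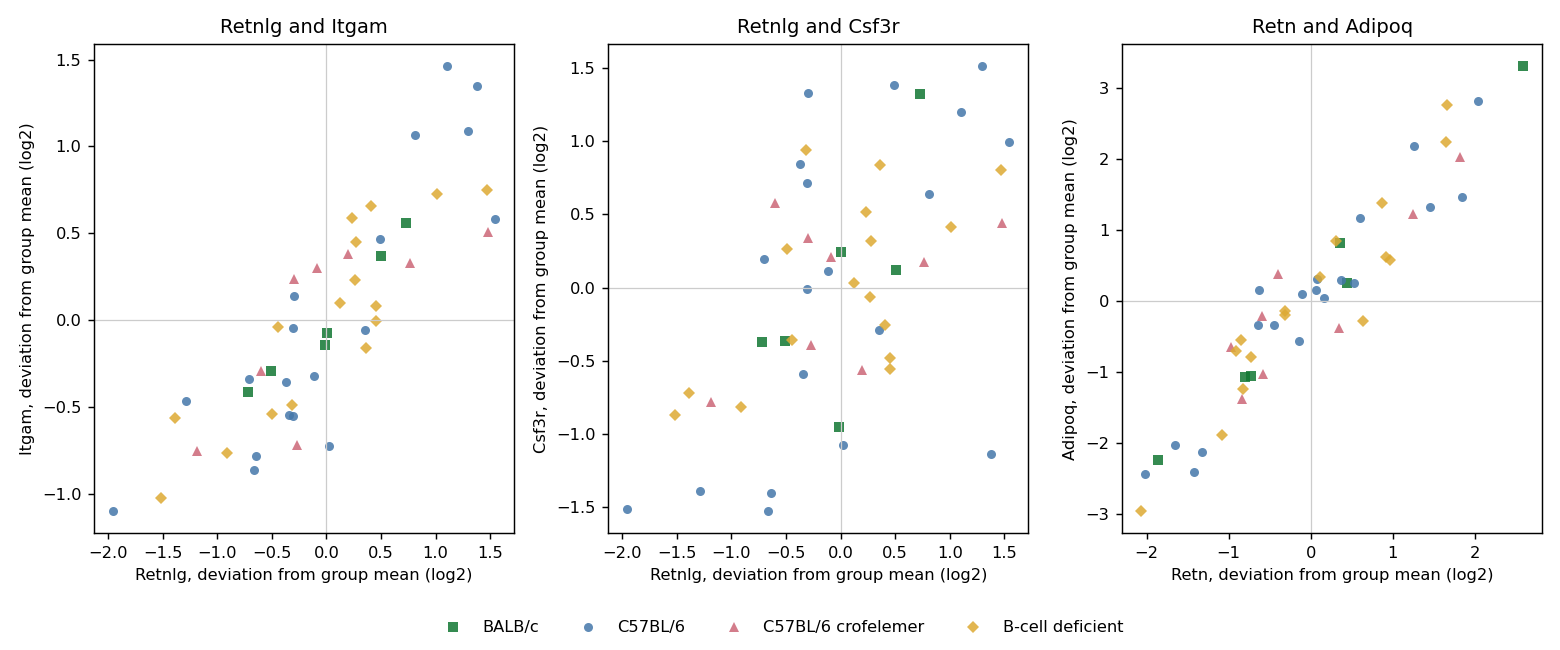
Deviations of single arrays from the mean of their group, in log2 units, for Retnlg against Itgam, Retnlg against Csf3r and Retn against Adipoq, with 49 points in each panel and a colour and symbol per set. The points follow a line for Itgam (r = 0.85) and Adipoq (r = 0.95) and scatter more for Csf3r (r = 0.54).

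Retnlb stayed below the median of its array on all 49 arrays, between 2.88 and 5.64, so its changes are changes at the dim end of the scale. In BALB/c mice the controls read 3.28, 3.56 and 3.49 and the MDI arrays 3.53, 4.41 and 3.29. In C57BL/6 mice it ran from 3.23 to 3.98 (median 3.47) in controls and from 3.69 to 5.44 (median 4.15) after MDI, and in B-cell deficient mice from 3.59 to 4.35 (median 4.16) and from 4.17 to 5.64 (median 4.98). Under crofelemer the controls read 3.20, 3.25, 2.88, 3.04 and 3.63 and the MDI arrays 3.25, 2.95 and 2.96. Control and MDI arrays overlapped in all 4 sets.

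Retnlb rose after MDI by 0.75 ± 0.19 in C57BL/6 (limma adjusted p = 0.00591) and by 0.83 ± 0.20 in B-cell deficient mice (adjusted p = 0.00102), and the 2 effects differed by 0.08 ± 0.28 (interval -0.48 to 0.64; adjusted p = 0.868), or by -0.01 with arrays centred on their median. In BALB/c mice it had 0.30 ± 0.32 (adjusted p = 0.999) and under crofelemer -0.15 ± 0.29 (adjusted p = 0.951). With MDI, all 3 crofelemer arrays lay below all 13 C57BL/6 arrays, as held for 8.87% of all probe sets, and the difference was -1.21 ± 0.25 (adjusted p = 0.000144). In controls it was -0.32 ± 0.24 (adjusted p = 0.307). The difference between the MDI effects with and without crofelemer was -0.89 ± 0.35 and did not pass (interval -1.59 to -0.20; adjusted p = 0.268). The order of the groups by mean ran from B-cell deficient MDI (4.94) to crofelemer MDI (3.05), with every group overlapping the next.

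Goblet cell and mucus genes, the cells in which Retnlb is best known, were counted beside it. Of 18 measured, 9 rose in BALB/c, 12 in C57BL/6 and 12 in B-cell deficient mice, where 2 fell. Of all probe sets 0.261%, 5.30% and 16.2% rose in these sets, and 20.7% fell in B-cell deficient mice. Under crofelemer, where 0.054% of all probe sets were called, 2 of the 18 rose, Clca1 and Fcgbp (by 7.86 ± 0.97 and 2.20 ± 0.42; limma adjusted p = 2.77e-06 and 0.0128). Muc5ac, the mucin of goblet cell metaplasia, rose by 5.41 ± 0.39 in C57BL/6 mice (limma adjusted p = 3.07e-15) and by 5.89 ± 0.64 in BALB/c mice (adjusted p = 1.07e-08), the set in which Retnlb did not pass. Over group deviations the median r of Retnlb with these 18 genes was 0.24. The gene closest to Retnlb was Tnfrsf9, a costimulatory receptor of activated T cells (r = 0.81 over set deviations and 0.67 over group deviations). Col6a5, F10, S100a4 and Prg2 followed over set deviations (r = 0.80, 0.78, 0.78 and 0.77), and Rgs14, Hspa4, Vasp and Col6a5 over group deviations (r = 0.66, 0.66, 0.65 and 0.65).

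Retn did not pass the test of MDI in any set. In BALB/c mice the controls read 10.74, 6.29 and 7.42 and the MDI arrays 6.93, 5.69 and 6.85. In C57BL/6 mice it ran from 5.76 to 9.46 (median 7.64) in controls and from 5.02 to 8.88 (median 6.93) after MDI, and in B-cell deficient mice from 6.28 to 9.00 (median 7.04) and from 5.66 to 9.38 (median 7.84). Under crofelemer the controls read 4.61, 4.60, 6.44, 4.80 and 5.54 and the MDI arrays 4.99, 7.65 and 4.86. Single arrays of 1 group differed by up to several log2 units, and control and MDI arrays overlapped in every set.

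The differences of Retn after MDI were -1.66 ± 0.90 in BALB/c (interval -3.47 to 0.15), -0.38 ± 0.54 in C57BL/6 (-1.47 to 0.71), 0.37 ± 0.55 in B-cell deficient mice (-0.75 to 1.48) and 0.64 ± 0.80 under crofelemer (-0.98 to 2.25), with limma adjusted p from 0.633 to 0.970. Crofelemer controls were lower than C57BL/6 controls (difference -2.22 ± 0.67; adjusted p = 0.00634), though the groups overlapped. With MDI the difference was -1.21 ± 0.71 (adjusted p = 0.194), and it was -2.11 (adjusted p = 0.0429) without crofelemer MDI array 2.

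The spread of Retn ran with adipocyte genes. It was closest to Adipoq, the adiponectin gene of fat cells (r = 0.93 over set deviations and 0.95 over group deviations). Thrsp, Car3, Plin1 and Fabp4 followed over set deviations (r = 0.88, 0.87, 0.86 and 0.85), and Car3, Cidec, Thrsp and Cyp2e1 over group deviations (r = 0.92, 0.89, 0.88 and 0.86). All 16 measured adipocyte genes had an r above 0 with Retn by both measures, with medians of 0.74 and 0.77 against -0.01 over all other probe sets. The mean signal of the 16 ranged from 6.96 to 9.41 in C57BL/6 controls and from 6.04 to 8.56 after MDI, and the highest mean of any array was that of a BALB/c control (10.8). In Adipoq, BALB/c control 1, the array with the highest Retn, stood 3.30 above the mean of its group. With crofelemer in controls 1 of the 16, the lipase Lipe, was lower (difference -1.02 ± 0.30; limma adjusted p = 0.00481), where 21.4% of all probe sets were lower. Adipoq had -1.08 ± 0.86 (adjusted p = 0.329). The replicate block called 6 of the 16 lower there. Retn with Retnla and Retnlg gave r = 0.22 and -0.18 over group deviations.

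Proteins reported to bind resistin or resistin-like molecules were counted last. Of Cap1, Tlr4, Ror1 and Btk, limma called 0 after MDI in BALB/c, in C57BL/6 and under crofelemer, also at an unadjusted p under 0.05. Of all probe sets, 0.302%, 14.5% and 0.054% were called in these comparisons. In B-cell deficient mice Btk, a kinase of B cells and myeloid cells reported as a partner of RELM-alpha, rose by 1.70 ± 0.25 (adjusted p = 4.47e-07) and the endotoxin receptor Tlr4 by 0.49 ± 0.15 (adjusted p = 0.00699). Cap1, an adenylyl cyclase-associated protein reported as a resistin receptor, had -0.17 ± 0.13 (adjusted p = 0.321) and Ror1 0.21 ± 0.15 (adjusted p = 0.290). The rise of Btk exceeded that in C57BL/6 mice by 1.23 ± 0.34 (adjusted p = 0.00983), a direction in which 9.27% of all probe sets passed. In B-cell deficient mice 16.2% of all probe sets rose after MDI. Of the 4 binding-protein genes, 1 was higher and 1 lower with crofelemer than without in controls, and likewise with MDI. Of all probe sets, 17.6% were higher and 21.4% lower in controls, and 15.0% and 17.5% with MDI.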

How the data were processed

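The deposited table holds log2 signals of 22206 probe sets for 51 arrays. Per the submitters' processing notes the authors used Transcriptome Analysis Console, without a version, and how they normalized is not given in the sources used here. That the logs are to base 2 rests on the span of the deposited log2 values (1.86 to 20.91). The values were used as deposited. A single limma model (version 3.58.1, R 4.3.3) gave each of the 8 groups a mean over 49 arrays, leaving 41 residual degrees of freedom, with variances moderated along a trend with signal. Tests were 2-sided, and p-values of each of the 9 comparisons were adjusted by Benjamini-Hochberg over all probe sets. Likeness was Pearson's r among 18455 probe sets with a gene name, and the 5 closest are named. From each gene list the rule named the defining genes and at most 4 others, those ranked first by adjusted p. Others were named after their values were seen, to give the members of small counts and their known roles. The members, the 13 lists and the rules were chosen with earlier results of these data known.

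Between the MDI groups with and without crofelemer, deviations of arrays with the same number had r of 0.11 to 0.17 (3 pairs). Between C57BL/6 MDI and control arrays r ran from -0.22 to 0.18, with 4 of 6 pairs over 0.1. Such low values do not establish that array numbers pair the arrays. With the replicate block the Retnla difference between the MDI groups with and without crofelemer was -1.34 (limma adjusted p = 0.0123). The alternatives were centred or quantile-normalized arrays, no dim probe sets, no trend, other sets of arrays, array weights, submission runs, the replicate block and leaving out single arrays. The fits were tested on simulated data. Sequences came from RefSeq tables, read with Python 3.11.15 and aligned with Biopython 1.88. Retnlb has no sequence shown.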

Additional observations from a re-analysis of the deposited data

Results flagged for a closer look

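In 20 sets of 4 to 10 arrays (the 4 genes and Retnla minus Retnlg in 4 groups), 1 array stood apart by Dixon's test, which chance gives in about 1 in 20 sets: B-cell deficient control 3 read 3.59 for Retnlb, below the other 8 controls. The MDI effect on Retnlg differed between B-cell deficient and C57BL/6 mice by 2.59 (limma adjusted p = 0.00150). The MDI effect on Retnla differed between C57BL/6 mice with and without crofelemer by -3.54 (adjusted p = 0.00922).

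Of the 2 arrays whose labels contradict each other, number 4 read 18.26 and number 13 read 19.13 for Retnla, both above every control array of the 8 groups. The title of number 4 names MDI with crofelemer, and that of number 13 names MDI alone. For Retnla, number 4 lay above all 3 crofelemer MDI arrays (highest 17.95) and within the C57BL/6 MDI arrays (17.85 to 19.39). The crofelemer results with number 4 included were not tested. Number 13 also read 17.32 for Retnlg and 4.56 for Retnlb, above every control array.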

How the results depend on the processing

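Over 9 comparisons of the 4 genes and 6 of Retnla minus Retnlg, 304 of 320 values under other settings and 704 of 728 with 1 array left out kept their direction and their side of the threshold. The cause of the changes below was not tested.

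The difference of MDI effects on Retnla between B-cell deficient and C57BL/6 mice, -0.12, was 0.52 with quantile normalization, 0.081 with the submission run as a term, 0.46 within runs and 0.43 with a replicate block. That of Retnlb was -0.014 with arrays centred on their median. The Retn effect in B-cell deficient mice was -0.054 with the run as a term and within runs. The Retnlg effect in C57BL/6 mice was 1.06 (limma adjusted p = 0.0783) with the run as a term and 0.72 (adjusted p = 0.356) within runs. The rise of Retnla in crofelemer controls was 1.24 (adjusted p = 0.0753) within runs. The smaller Retnla effect under crofelemer, -3.54, had an adjusted p of 0.05001 with only the 4 groups compared, and was -2.76 (0.0925) within runs and -2.54 (0.773) with the replicate block. The MDI effect under crofelemer was 2.51 for Retnla and 2.31 for Retnlg with the replicate block, and 1.99 for Retnlg with only the groups compared (adjusted p = 0.00141, 0.00141 and 0.0372). The replicate block changed no other call of the 4 genes.

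With 1 array left out, the ranges that crossed 0 or the threshold were, for MDI effects, -0.033 to 0.53 (Retnlb, BALB/c), 0.87 to 1.57 (Retnlg, C57BL/6), -0.71 to 0.031 (Retn, C57BL/6) and -0.27 to 1.12 (Retn, crofelemer). For differences of effects they were -0.45 to 0.58 (Retnla, BALB/c), -2.21 to 0.012 (Retn, BALB/c), -0.65 to 0.18 (Retnla, B-cell deficient), -0.037 to 0.21 (Retnlb, B-cell deficient), -4.07 to -3.23 (Retnla, crofelemer) and -0.015 to 1.32 (Retnlg, crofelemer). For Retnla minus Retnlg after MDI under crofelemer the range was -0.37 to 0.43. For crofelemer with MDI they were -1.93 to -1.18 (Retnla) and -2.11 to -0.72 (Retn).

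The number of probe sets called moved with the settings and arrays, from 29 to 283 in BALB/c, 930 to 3776 in C57BL/6, 3780 to 8988 in B-cell deficient mice, 1 to 22 under crofelemer, 2148 to 8199 for crofelemer with MDI and 7166 to 10609 in controls. For differences of effects it ran from 2 to 183 (BALB/c), 719 to 5173 (B-cell deficient) and 4 to 125 (crofelemer). Leaving out dim probe sets gave no value for Retnlb or Retn. Groups of 3 arrays limit the precision in BALB/c mice and with crofelemer.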

Other observations

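The 2 arrays with contradictory labels entered no comparison. Number 4 read 13.26 for Retnlg, 3.22 for Retnlb and 6.73 for Retn, with 5.47 for Ms4a1 and 8.64 for Cd79a. Number 13 read 6.72 for Retn, with 7.06 for Ms4a1 and 10.79 for Cd79a.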
